A study of Mus musculus with 8 samples.

Results

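DNA replication and mitosis genes were followed under 3 stresses in NIH3T3, an established mouse embryo fibroblast line, by sequencing the RNA of its nuclei. The set holds 39 genes of the 48676 rows in each deposited expression table, chosen by name from a fixed list and found in exactly 1 row each. They were described as 21 S phase genes, Mcm2 to Ccne2, and 18 G2 and mitosis genes, Ccnb1 onward. The heat shock group was kept at 44 °C, the osmotic stress group received 200 mM KCl and the oxidative stress group 0.2 mM H2O2, each for 2 h, and the last group was untreated. All groups shared the cell line and growth medium, and each had 2 libraries. RNA came from nuclei that were separated through a sucrose cushion and depleted of ribosomal RNA. Nothing in the labels says whether the libraries of a group came from separate cultures, so the p-values measure only the spread between these libraries, which may be technical.

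Replication starts where the origin-bound Cdc6 and Cdt1 proteins load the Mcm2 to Mcm7 helicase, and cyclin E with its kinase drives cells into that phase. E2F transcription factors activate many of these genes at the border of G1 and S. Mitosis depends on cyclin B with Cdk1, on Polo and Aurora kinases, on spindle motors and on a checkpoint that waits for every chromosome to attach; these genes are transcribed later in the cycle, and their promoters often hold CCAAT boxes and a CHR element bound by the DREAM and MuvB complexes. Both classes are therefore high in dividing cells, and nuclear RNA reports them closer to transcription than whole-cell RNA does.

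Levels are RPKM, reads scaled by the authors to gene model length and library size, so levels of different genes can be compared. Counts per library were not used here, so the depth is unknown and no counting interval is given. Osmotic stress replicate 1 stood apart. Its column added up to 1943000 RPKM, of which a single row took 1025000, while the 7 other columns came to 503400 to 771700. The long nuclear RNA Malat1 had a value of 0 there and 1840 to 2330 RPKM elsewhere. Of 10 fibroblast markers, which include vimentin, fibronectin and collagens, all were above 0, though Pdgfrb was below 1 RPKM in both libraries of each stress. The 10 markers summed to 4110 to 4150 RPKM after heat shock, 7340 to 8300 RPKM under osmotic stress, 6140 to 7060 RPKM under oxidative stress and 8340 to 8800 RPKM in untreated cells. S100a4, with 2470 to 2710 RPKM after heat shock and 5640 to 6100 RPKM in untreated cells, made up most of each sum. Of 13 markers of other cell types, 11 were below 1 RPKM in both untreated libraries, with Epcam, Krt18 and Myod1 at 0. The count was 11 after heat shock, 11 under osmotic stress and 9 under oxidative stress, where Cdh1 reached 1.01 RPKM and Tubb3 1.99 RPKM. These 13 summed to 11.7 RPKM in each heat shock library, 24.4 to 25.0 RPKM under osmotic stress, 31.8 to 34.0 RPKM under oxidative stress and 21.3 to 34.0 RPKM in untreated cells. Cd68, with 16.9 to 28.6 RPKM in untreated cells, made up most of that sum.

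All 39 genes were expressed in every library and all passed the filter of 0.5 RPKM in at least 2 libraries. Averaged over 2 libraries, S phase genes ran between 8.78 RPKM for Ccne1 and 96.6 RPKM for Rrm1 in untreated cells, with a median of 34.7 RPKM. Rrm1 at 96.6 ± 33.1 RPKM, Mcm6 at 96.1 ± 24.2 RPKM and Pcna at 83.4 ± 9.45 RPKM (SD, n = 2) stood at the top and did not differ beyond their spread. G2 and mitosis genes ran between 2.88 RPKM for Ccnb2 and 215 RPKM for Top2a in untreated cells, with a median of 35.2 RPKM. Top2a at 215 ± 21.8 RPKM was followed by Cdk1 at 129 ± 50.2 RPKM (SD, n = 2), and the libraries of these genes did not overlap. Top2a, the enzyme that untangles sister DNA molecules, and Ccnb2, a B-type cyclin, also marked the ends of the G2 and mitosis list in each stress. Ccne1 was the lowest S phase gene in all 4 groups.

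**Figure D1:**
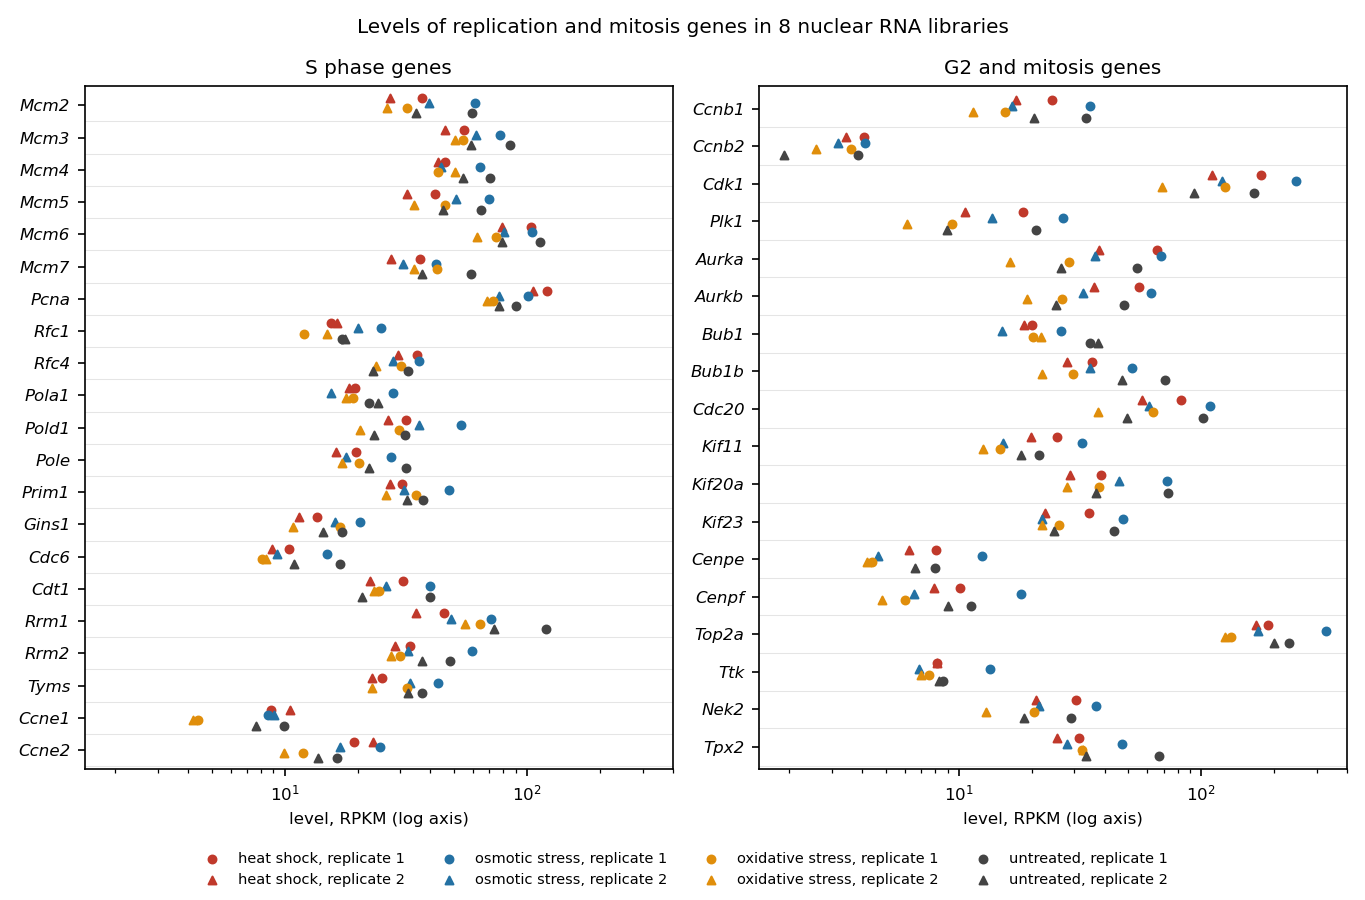
RPKM of the 39 genes on a log axis in the 8 libraries, S phase genes on the left and G2 and mitosis genes on the right, with circles for replicate 1 and triangles for replicate 2. Oxidative stress is the lowest of the 4 group means for 12 of 21 S phase genes and 15 of 18 G2 and mitosis genes.

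The promoters were read to show what separates the S phase and mitotic lists in sequence. RefSeq promoter windows (build GRCm38.p6, 250 bases before to 50 after a gene's start) matched 32 of the 39 genes, 17 S phase genes and 15 G2 and mitosis genes. Mcm4, Pole, Gins1, Ccne2, Aurkb, Kif20a and Tpx2 had no entry. The letters of 3 motifs were searched on both strands: an E2F site (TTTCCCGC or TTTGGCGC), the CHR element (TTTGAA) and the CCAAT box (CCAAT), and 0 of their matches overlapped another motif. An E2F match lay in 8 of 17 S phase promoters (47.1%) and 0 of 15 G2 and mitosis promoters, against 1.63% of the 27025 promoters of the table. The CHR letters lay in 1 of 17 S phase promoters (5.88%), that of Mcm2, and 11 of 15 G2 and mitosis promoters (73.3%), against 18.1% of all. CCAAT lay in 11 of 17 (64.7%) and 15 of 15 promoters, against 37.9% of all. A match is a stretch of letters and does not show that a factor binds there. A window without a match may still hold a site, since only these exact letters were searched, in a single window per gene. The windows below, 5′ to 3′ along the gene with matches in capitals, show an S phase pair with an E2F match (Mcm5 with CCAAT boxes as well, Cdc6 without), a mitotic pair with CHR and CCAAT, and Ccne1, which had the lowest adjusted p of the 39 genes between stresses and whose window held 0 matches. They lie at chr8:75109259-75109558 (plus strand) for Mcm5, chr11:98907901-98908200 (plus strand) for Cdc6, chr2:118597961-118598260 (plus strand) for Bub1b, chr2:172370521-172370820 (minus strand) for Aurka and chr7:38107441-38107740 (minus strand) for Ccne1.
Mcm5: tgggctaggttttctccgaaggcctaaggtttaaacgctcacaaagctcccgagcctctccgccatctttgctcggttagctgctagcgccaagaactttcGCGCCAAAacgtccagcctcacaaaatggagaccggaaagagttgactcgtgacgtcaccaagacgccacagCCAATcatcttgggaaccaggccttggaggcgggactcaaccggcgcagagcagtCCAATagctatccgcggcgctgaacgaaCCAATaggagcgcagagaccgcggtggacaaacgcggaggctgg
Cdc6: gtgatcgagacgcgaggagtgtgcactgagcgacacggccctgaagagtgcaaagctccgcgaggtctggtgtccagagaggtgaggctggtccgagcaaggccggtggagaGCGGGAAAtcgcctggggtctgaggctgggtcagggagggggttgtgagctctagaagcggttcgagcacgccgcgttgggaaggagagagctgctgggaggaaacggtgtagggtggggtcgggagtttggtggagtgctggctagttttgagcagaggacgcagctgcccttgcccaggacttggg
Bub1b: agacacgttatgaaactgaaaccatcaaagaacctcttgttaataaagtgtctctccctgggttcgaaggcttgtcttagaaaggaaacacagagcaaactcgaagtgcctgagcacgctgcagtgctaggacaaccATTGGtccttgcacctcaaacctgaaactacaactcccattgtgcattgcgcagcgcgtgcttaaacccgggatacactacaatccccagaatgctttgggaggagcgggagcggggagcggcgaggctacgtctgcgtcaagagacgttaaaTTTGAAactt
Aurka: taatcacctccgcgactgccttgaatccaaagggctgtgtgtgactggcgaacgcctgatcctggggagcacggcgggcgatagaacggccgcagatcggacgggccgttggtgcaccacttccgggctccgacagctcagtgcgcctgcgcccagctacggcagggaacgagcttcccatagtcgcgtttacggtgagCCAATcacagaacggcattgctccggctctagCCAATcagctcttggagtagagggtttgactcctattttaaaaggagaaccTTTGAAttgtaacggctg
Ccne1: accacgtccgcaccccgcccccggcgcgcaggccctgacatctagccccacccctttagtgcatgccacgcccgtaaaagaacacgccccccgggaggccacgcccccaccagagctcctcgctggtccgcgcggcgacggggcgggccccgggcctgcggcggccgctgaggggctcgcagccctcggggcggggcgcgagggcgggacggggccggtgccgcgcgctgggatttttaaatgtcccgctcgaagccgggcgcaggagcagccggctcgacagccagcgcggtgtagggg

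Each stress was compared with untreated cells, which asks how transcripts of the division programme stood after 2 h. None of the 39 genes was called in any stress at an adjusted p under 0.05 by the fit of the groups alone. Some alternative fits, among them the one with the replicate number as a block, did call members, as the last section gives. After heat shock, levels of the 21 S phase genes leaned below untreated cells, a lean that 41 further replication genes did not share. That direction depended on the scaling, since the S phase median was above 0 when every column was set to one sum. The median of G2 and mitosis genes took either sign depending on the libraries used. Under osmotic stress both list medians were below that of all rows when all 8 libraries were used. That order and their direction from untreated cells depended on single libraries, and the direction also on the scaling. Under oxidative stress nearly every gene of both lists was below its mean in untreated cells. The tests were limma fits over all 16056 rows that passed the filter, with all 8 libraries, Benjamini-Hochberg adjustment and a median SE of 0.21 on the log2(RPKM + 0.5) scale used for every log2 value here. An exact permutation test of 2 against 2 libraries cannot go below p = 0.333. RNA of a bulk culture cannot tell fewer cells in S phase or mitosis apart from less RNA in each such cell.

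For heat shock against untreated cells limma called 6.62% of all rows and 0 of the 39 genes; at an unadjusted p under 0.05 it found 3 S phase and 2 G2 and mitosis genes, against 25.5% of all rows. The median log2 change was -0.32 over S phase genes, -0.05 over G2 and mitosis genes and -0.09 over all rows. The G2 and mitosis median was -0.32 without heat shock replicate 1, 0.11 without heat shock replicate 2, 0.14 without untreated replicate 1 and -0.34 without untreated replicate 2. With single libraries left out the S phase median stayed below 0, at -0.17 without untreated replicate 1 and -0.59 without untreated replicate 2. It was above 0 when every column was set to one sum. Below 0 were 16 of 21 S phase genes and 11 of 18 G2 and mitosis genes, counts that were 15 and 8 after median-of-ratios or quantile scaling and 9 and 4 when every column was set to one sum, which put the median of all rows at 0.30. Both heat shock libraries lay below both untreated libraries for 18 of the 39 genes (46.2%), 13 of them S phase genes, against 35.8% of all rows. Heat shock was the lower group in each of the 2 tables for 23 genes (59.0%), against 45.1% of all rows. Both lay above for Pcna and Ccne2 alone, 5.13% of the genes against 22.0% of all rows. The summed fibroblast markers given above were also lower after heat shock, but the markers did not fall as a class. S100a4, Vim, Fn1, Sparc and Pdgfrb were lower in both heat shock libraries than in both untreated ones. Col1a1, Col1a2, Col3a1 and Thy1 overlapped with untreated cells, and Twist1 was higher without overlap. The part of these markers in the values of the 39 genes was not tested.

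For osmotic stress against untreated cells 0.691% of all rows and 0 of the 39 genes were called by limma, with 1 S phase and 1 G2 and mitosis gene at an unadjusted p under 0.05, against 22.1% of all rows. The median log2 change was 0.08 over S phase genes and 0.16 over G2 and mitosis genes, beside 0.18 over all rows. Below 0 were 8 of 21 and 5 of 18 genes, but 18 and 12 after median-of-ratios or quantile scaling and 20 and 18 with a common column sum, so no direction can be given for these lists. The median-of-ratios scaling put the median of all rows at 0.0 and the common column sum put it at -0.35. Without osmotic stress replicate 1, the library that stood apart, the list medians were -0.15 for S phase genes and -0.30 for G2 and mitosis genes, beside 0.13 for all rows. With each library left out in turn, the S phase median ran between -0.15 and 0.31 and the G2 and mitosis median between -0.30 and 0.63. The median of all rows ran between 0.11 and 0.24 in those fits. Both osmotic stress libraries lay above both untreated ones for Rfc1, Pold1 and Ccne2 (7.69% of the genes, against 38.8% of all rows) and below for Rrm1 and Bub1 (5.13%, against 12.4%). Osmotic stress was the lower group in each of the 2 tables for 8 genes (20.5%), against 17.9% of all rows.

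For oxidative stress against untreated cells limma called 1.48% of all rows and 0 of the 39 genes, with 2 S phase and 3 G2 and mitosis genes at an unadjusted p under 0.05, against 17.9% of all rows. The median log2 change was -0.41 over S phase genes and -0.64 over G2 and mitosis genes, beside -0.10 over all rows. Without untreated replicate 1 the medians were -0.22 and -0.20, and without untreated replicate 2 they were -0.62 and -0.93. The G2 and mitosis median was -0.43 without oxidative stress replicate 2. The difference between the 2 lists was not tested. All 21 S phase genes and 17 of 18 G2 and mitosis genes were below 0, the exception being Ccnb2. The counts were 20 and 17 after median-of-ratios or quantile scaling and 19 and 17 with a common column sum. In each of the 2 tables, oxidative stress lay below untreated for 36 of the 39 genes (92.3%), against 43.0% of all rows, and Rfc4, Cdt1 and Ccnb2 were the others. The 2 groups did not overlap for 23 genes (59.0%), all lower under oxidative stress, against 30.1% of all rows. The summed fibroblast markers were lower under oxidative stress too, at 6140 to 7060 RPKM, against 8340 to 8800 RPKM in untreated cells, and their part in these values was not tested. These genes are regulated together, so their shared direction is not that many separate observations.

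**Figure D2:**
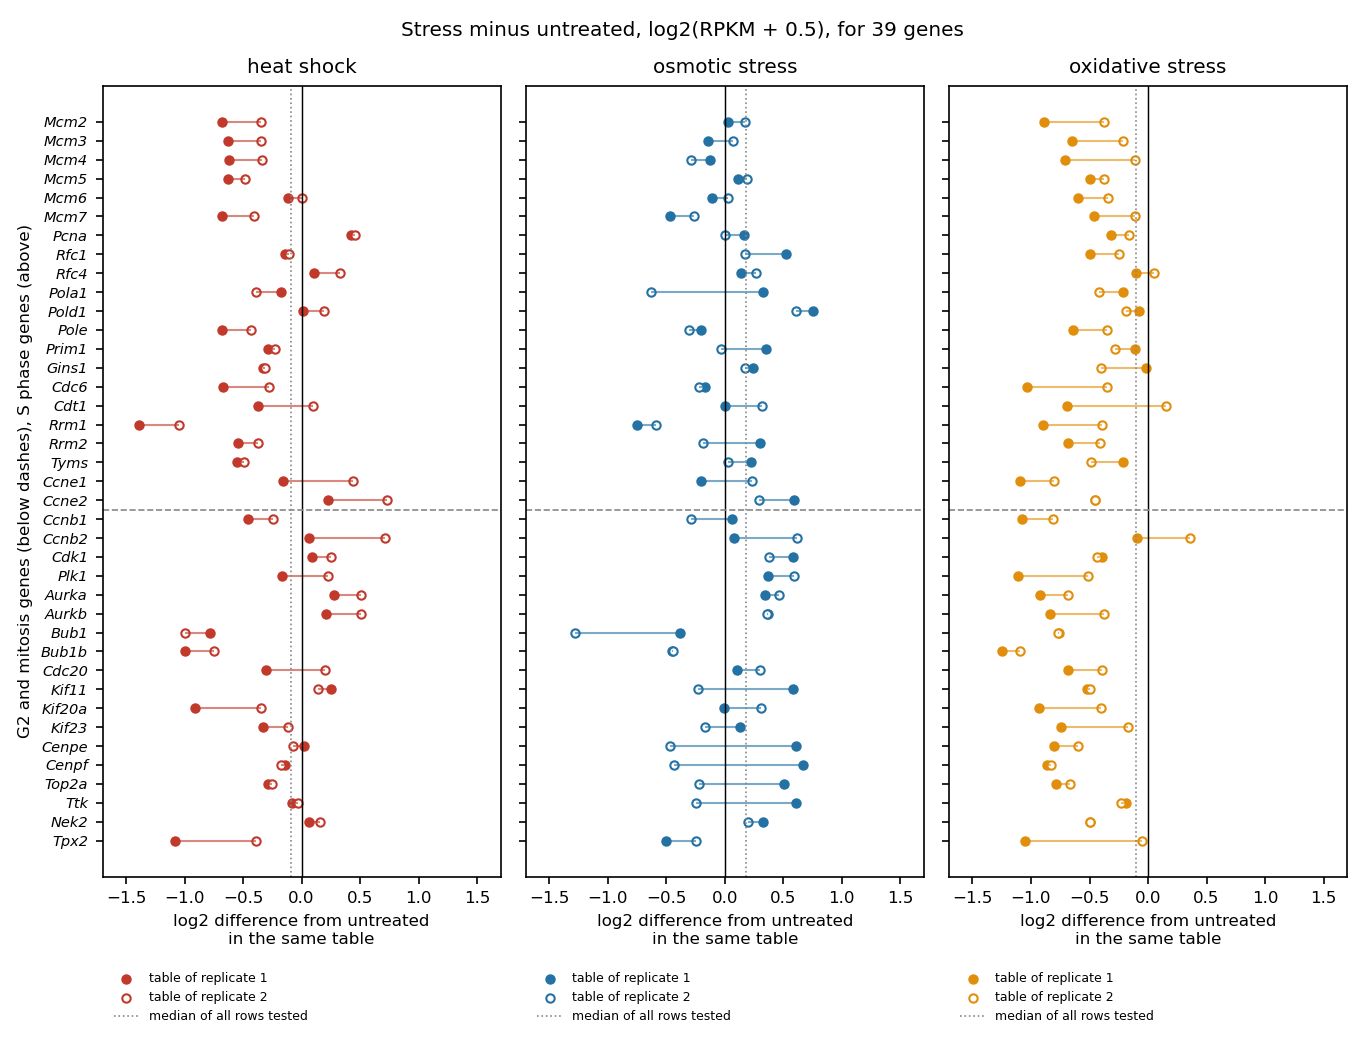
Log2(RPKM + 0.5) of each stress minus untreated for the 39 genes, taken within the table of replicate 1 (filled) and of replicate 2 (open), with the median of all rows as a dotted line. Under oxidative stress 36 of 39 genes lie left of 0 in both tables, under heat shock 23 and under osmotic stress 8.

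**Figure D3:**
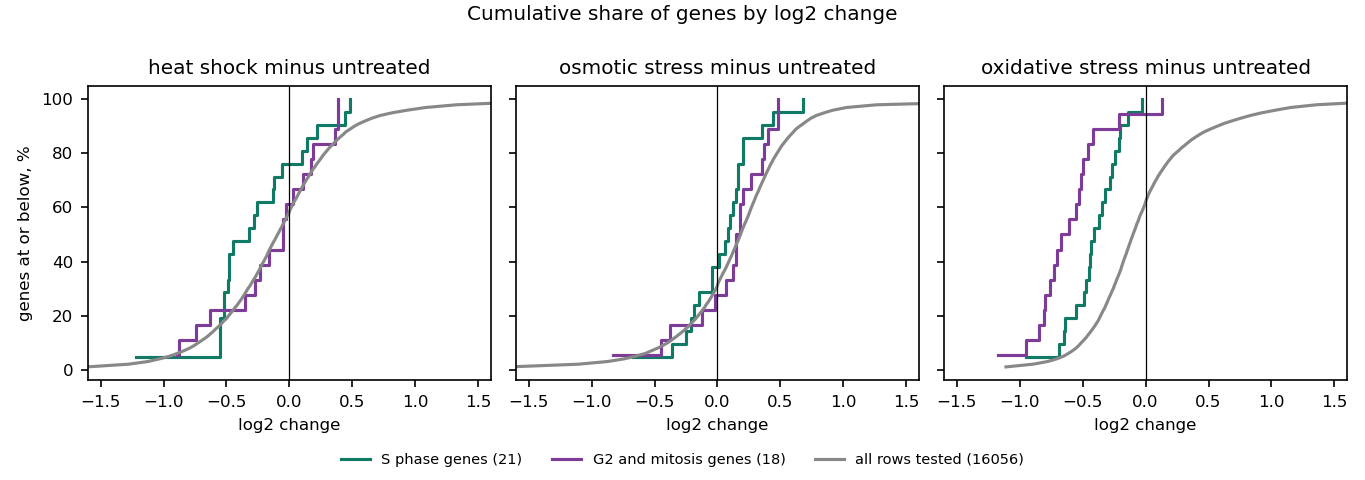
Cumulative share of genes (y axis, %) at or below a log2 change from untreated (x axis) for the S phase list, the G2 and mitosis list and all 16056 rows. In the oxidative stress panel the medians are -0.41, -0.64 and -0.10, and both lists lie left of the grey curve.

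Among the genes that license origins, the helicase subunits Mcm2 to Mcm7 ran between 26.5 and 113 RPKM over all groups. Mcm5 had 41.9 and 32.0 RPKM after heat shock, 69.9 and 51.1 RPKM under osmotic stress, 45.8 and 34.3 RPKM under oxidative stress and 64.8 and 44.9 RPKM in untreated cells, replicate 1 first here and below. Both heat shock libraries were lower than both untreated ones, while the oxidative stress pair overlapped with the untreated pair. The log2 change was -0.55 after heat shock (SE 0.27, adjusted p = 0.25). Mcm7 had 36.3 and 27.6 RPKM after heat shock, 42.3 and 30.7 RPKM under osmotic stress, 42.5 and 34.2 RPKM under oxidative stress and 58.7 and 36.8 RPKM in untreated cells. Its untreated libraries were 1.59-fold apart, a wider gap than between any of its group means, and its largest log2 change was -0.55 after heat shock (adjusted p = 0.28). For the other helicase genes, log2 changes ran between -0.52 for Mcm2 and -0.06 for Mcm6 after heat shock, between -0.21 for Mcm4 and 0.10 for Mcm2 under osmotic stress and between -0.64 for Mcm2 and -0.41 for Mcm4 under oxidative stress.

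Cdc6, a helicase loader, had 10.4 and 8.88 RPKM after heat shock, 15.0 and 9.29 RPKM under osmotic stress, 8.06 and 8.41 RPKM under oxidative stress and 17.0 and 10.9 RPKM in untreated cells. The oxidative stress libraries were the lowest of the 8, and the log2 change from untreated was -0.69 (SE 0.28, adjusted p = 0.27). Cdt1, its partner in loading, had 24.5 and 23.3 RPKM under oxidative stress and 40.0 and 20.9 RPKM in untreated cells, so the untreated libraries alone were 1.91-fold apart. Gins1, a subunit of the running helicase, had 13.6 and 11.5 RPKM after heat shock and 17.2 and 14.4 RPKM in untreated cells, a log2 change of -0.32 (adjusted p = 0.46).

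At the replication fork the genes did not move as a block. Pcna, the sliding clamp that holds polymerases on DNA, had 121 and 106 RPKM after heat shock, 101 and 76.5 RPKM under osmotic stress, 72.3 and 68.7 RPKM under oxidative stress and 90.1 and 76.7 RPKM in untreated cells. Both heat shock libraries were above all 6 others, and both oxidative stress libraries were below all others. The log2 change after heat shock was 0.44 (SE 0.18, adjusted p = 0.19). Rfc1, the large subunit of the clamp loader, had 15.6 and 16.5 RPKM after heat shock, 25.1 and 20.1 RPKM under osmotic stress, 12.0 and 14.9 RPKM under oxidative stress and 17.3 and 17.8 RPKM in untreated cells. None of its 4 groups overlapped, with osmotic stress at the top and oxidative stress at the bottom. Rfc4, a small subunit of the same loader, had 35.1 and 29.3 RPKM after heat shock, 35.8 and 28.0 RPKM under osmotic stress, 30.1 and 23.9 RPKM under oxidative stress and 32.4 and 23.2 RPKM in untreated cells, and all its groups overlapped.

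Pold1, the catalytic subunit of the lagging-strand polymerase delta, had 31.8 and 26.8 RPKM after heat shock, 53.3 and 36.0 RPKM under osmotic stress, 29.7 and 20.5 RPKM under oxidative stress and 31.5 and 23.4 RPKM in untreated cells. Its osmotic stress libraries were the highest of the 8, with a log2 change from untreated of 0.68 (SE 0.27, adjusted p = 0.21). Pole, the catalytic subunit of the leading-strand polymerase epsilon, had 19.7 and 16.3 RPKM after heat shock, 27.5 and 17.9 RPKM under osmotic stress, 20.2 and 17.3 RPKM under oxidative stress and 31.7 and 22.2 RPKM in untreated cells. Pole was lower than untreated without overlap after heat shock and under oxidative stress, by log2 changes of -0.55 (adjusted p = 0.24) and -0.49 (adjusted p = 0.38). Pola1, of the polymerase that starts each strand, differed by log2 changes of -0.28, -0.15 and -0.32 after heat shock, under osmotic and under oxidative stress, and its primase partner Prim1 by -0.26, 0.16 and -0.20.

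Genes of nucleotide supply held the largest difference of the S phase list. Rrm1, the large subunit of ribonucleotide reductase, had 45.3 and 35.0 RPKM after heat shock, 71.2 and 48.4 RPKM under osmotic stress, 63.9 and 55.6 RPKM under oxidative stress and 120.0 and 73.2 RPKM in untreated cells. All 6 stress libraries were below both untreated libraries. The log2 change was -1.22 after heat shock (SE 0.30, adjusted p = 0.059), -0.67 under osmotic stress (adjusted p = 0.24) and -0.65 under oxidative stress (adjusted p = 0.32). Over the alternatives the adjusted p of the heat shock difference ranged between 0.014 and 0.72. For the small subunit gene Rrm2, heat-shocked cells had 33.0 and 28.5 RPKM and untreated cells 48.2 and 36.8 RPKM, a log2 change of -0.45 (adjusted p = 0.38). For Tyms, which makes thymidylate, heat-shocked cells had 25.2 and 22.9 RPKM and untreated cells 37.0 and 32.4 RPKM, a log2 change of -0.52 (adjusted p = 0.18).

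The cyclin E genes were the clearest case of a difference between stresses. Ccne1 had 8.8 and 10.5 RPKM after heat shock, 8.56 and 9.02 RPKM under osmotic stress, 4.39 and 4.19 RPKM under oxidative stress and 9.92 and 7.64 RPKM in untreated cells. The oxidative stress libraries lay far below the other 6, which overlapped. Against untreated cells the log2 change under oxidative stress was -0.95 (SE 0.17, adjusted p = 0.055), which missed the threshold. Ccne2 had 19.3 and 23.2 RPKM after heat shock, 24.8 and 16.9 RPKM under osmotic stress, 11.9 and 9.94 RPKM under oxidative stress and 16.4 and 13.8 RPKM in untreated cells. Here untreated cells stood between oxidative stress below and the other stresses above, with log2 changes of 0.48 after heat shock (adjusted p = 0.23), 0.44 under osmotic stress (adjusted p = 0.29) and -0.45 under oxidative stress (adjusted p = 0.35).

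**Figure D4:**
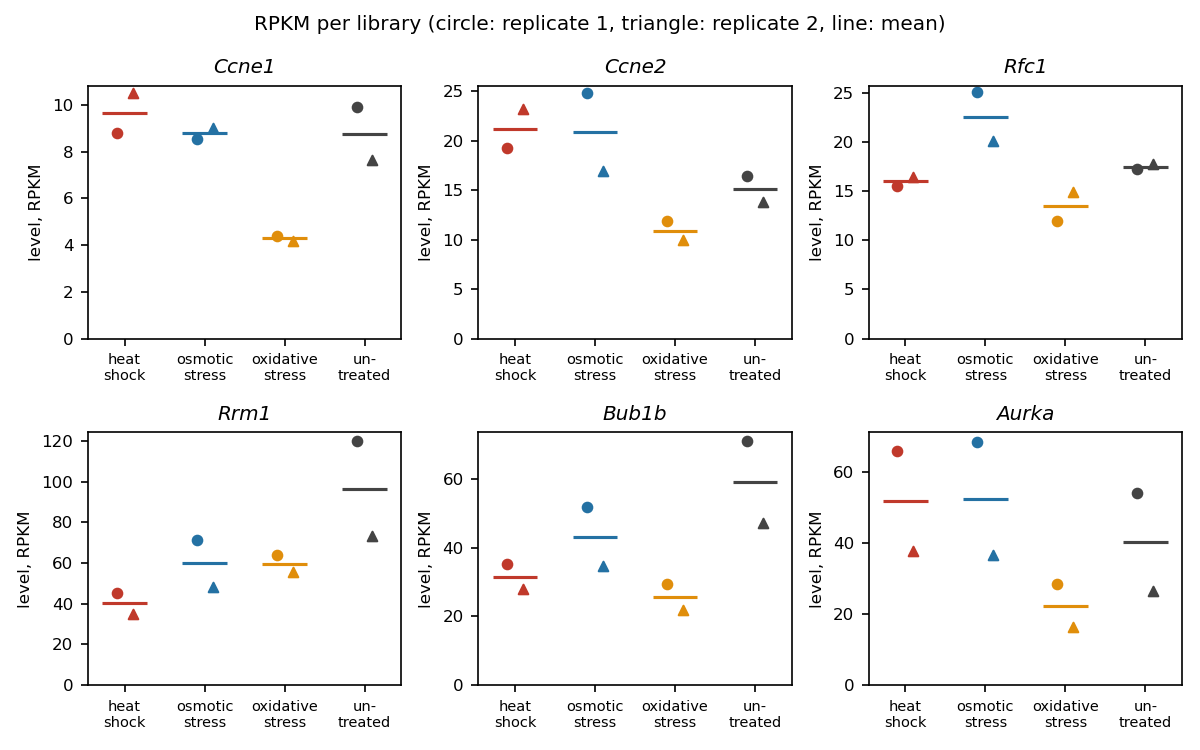
RPKM (y axis, from 0) of 6 genes in each library, circles for replicate 1, triangles for replicate 2 and a line for the mean. Ccne1 is 4.19 to 4.39 RPKM under oxidative stress against 7.64 to 10.5 RPKM in the other 6 libraries, and the libraries of Aurka are 28.4 and 16.3 RPKM under oxidative stress against 54.2 and 26.4 RPKM in untreated cells.

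Comparing stresses with each other asked whether they act alike on these genes, and here 3 genes were called. For heat shock against oxidative stress 2 of the 39 genes (5.13%) were called, both higher after heat shock, against 14.2% of all rows called in either direction and 5.76% called higher. Ccne1 was higher after heat shock by a log2 change of 1.08 (SE 0.17, adjusted p = 0.016). Ccne2 was higher by 0.93 (SE 0.22, adjusted p = 0.039). For osmotic stress against oxidative stress 3 of 39 (7.69%) were called, against 19.3% of all rows called in either direction and 14.2% called higher: Ccne1 by 0.96 (SE 0.17, adjusted p = 0.023), Ccne2 by 0.89 (SE 0.22, adjusted p = 0.039) and Rfc1 by 0.72 (SE 0.16, adjusted p = 0.033), all higher under osmotic stress. Over the 39 genes together both shares are below those of all rows in this fit. Among the 21 S phase genes 9.52% and 14.3% were called, all higher, against 5.76% and 14.2% of all rows called higher. For G2 and mitosis genes the count was 0 in both comparisons. With the replicate number as a block the share of the 39 genes was above that of all rows, as the last section gives. For heat shock against osmotic stress limma called 0 of 39 genes, with 3 S phase genes at an unadjusted p under 0.05, against 8.2% of all rows called and 27.5% at the unadjusted p. These comparisons share libraries with one another.

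The calls were close to the threshold. Leaving out any of the 4 heat shock and oxidative stress libraries gave an adjusted p of 0.064 to 0.097 for Ccne1 in heat shock against oxidative stress and 0.12 to 0.18 for Ccne2. Ccne2 also had 0.057 without either untreated library. Without osmotic stress replicate 1, the differences from oxidative stress were 0.57 for Rfc1 (adjusted p = 0.13), 0.99 for Ccne1 (adjusted p = 0.095) and 0.62 for Ccne2 (adjusted p = 0.15). Pcna, the next gene in heat shock against oxidative stress, differed by 0.68 (adjusted p = 0.053).

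Over the lists, medians for heat shock against oxidative stress were 0.09 for S phase genes and 0.54 for G2 and mitosis genes, beside -0.01 for all rows. With single libraries left out they ran between -0.08 and 0.20 for S phase genes, the lowest without heat shock replicate 1, and between 0.23 and 0.79 for G2 and mitosis genes, the lowest without oxidative stress replicate 2. Both heat shock libraries were above both oxidative stress libraries for 16 genes (41.0%), 10 of them mitotic, against 31.5% of all rows. For osmotic against oxidative stress they were 0.43 and 0.77, beside 0.27, and 24 genes (61.5%) did not overlap, against 49.3% of all rows. These medians were 0.17 and 0.31 without osmotic stress replicate 1, and 0.66 and 1.18 without osmotic stress replicate 2. For heat shock against osmotic stress they were -0.30 and -0.23, beside -0.26. There the G2 and mitosis median ran between -0.72 and 0.23 and the S phase median between -0.61 and -0.01 when single libraries were left out.

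In G2 and mitosis, the kinase that starts mitosis and its cyclins came first. Cdk1 had 176 and 111 RPKM after heat shock, 246 and 122 RPKM under osmotic stress, 125 and 68.7 RPKM under oxidative stress and 165 and 93.6 RPKM in untreated cells. In every group replicate 1 was 1.58 to 2.02 times replicate 2, and all groups overlapped. The log2 change was 0.17 after heat shock (adjusted p = 0.87), 0.48 under osmotic stress (SE 0.48, adjusted p = 0.58) and -0.42 under oxidative stress (adjusted p = 0.70). Ccnb1, the main B-type cyclin, had 24.2 and 17.2 RPKM after heat shock, 34.8 and 16.6 RPKM under osmotic stress, 15.5 and 11.4 RPKM under oxidative stress and 33.4 and 20.4 RPKM in untreated cells. Its oxidative stress libraries were below all others, with a log2 change from untreated of -0.95 (SE 0.40, adjusted p = 0.29). Ccnb2 had 4.05 and 3.43 RPKM after heat shock, 4.09 and 3.18 RPKM under osmotic stress, 3.59 and 2.57 RPKM under oxidative stress and 3.85 and 1.90 RPKM in untreated cells. It was the only member of its list above 0 under oxidative stress (log2 change 0.13, adjusted p = 0.87), but the change was -0.30 without untreated replicate 2 and -0.07 without oxidative stress replicate 1.

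The mitotic kinases followed the cyclins. Plk1, which acts from mitotic entry to division, had 18.5 and 10.6 RPKM after heat shock, 26.9 and 13.7 RPKM under osmotic stress, 9.35 and 6.13 RPKM under oxidative stress and 20.8 and 8.94 RPKM in untreated cells. Aurka, the spindle pole kinase, had 65.9 and 37.8 RPKM after heat shock, 68.6 and 36.6 RPKM under osmotic stress, 28.4 and 16.3 RPKM under oxidative stress and 54.2 and 26.4 RPKM in untreated cells. Aurkb, the kinase of the chromosomal passenger complex, had 55.6 and 36.1 RPKM after heat shock, 62.2 and 32.5 RPKM under osmotic stress, 26.7 and 19.2 RPKM under oxidative stress and 48.0 and 25.2 RPKM in untreated cells. For these kinases oxidative stress was lowest within each table, while it overlapped with untreated cells across tables. The log2 changes under oxidative stress were -0.81 for Plk1 (adjusted p = 0.46), -0.80 for Aurka (adjusted p = 0.45) and -0.61 for Aurkb (adjusted p = 0.52). Against oxidative stress Aurka stood higher by 1.20 after heat shock (SE 0.50, adjusted p = 0.15) and by 1.20 under osmotic stress (adjusted p = 0.12), and Plk1 by 1.29 under osmotic stress (adjusted p = 0.11).

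Spindle checkpoint genes held the lowest log2 changes of the mitotic list in each stress. Bub1, a kinetochore kinase of the checkpoint, had 20.0 and 18.6 RPKM after heat shock, 26.5 and 15.1 RPKM under osmotic stress, 20.3 and 21.8 RPKM under oxidative stress and 34.7 and 37.5 RPKM in untreated cells. All 6 stress libraries were below both untreated ones, and unlike most of its list Bub1 was no higher in the untreated library of replicate 1. The log2 change was -0.89 after heat shock (SE 0.25, adjusted p = 0.084), -0.83 under osmotic stress (adjusted p = 0.13) and -0.76 under oxidative stress (adjusted p = 0.19). Bub1b, which encodes the checkpoint protein BubR1, had 35.4 and 27.9 RPKM after heat shock, 51.8 and 34.7 RPKM under osmotic stress, 29.6 and 22.0 RPKM under oxidative stress and 71.2 and 47.3 RPKM in untreated cells. Both heat shock and both oxidative stress libraries were below both untreated ones, by log2 changes of -0.88 (SE 0.29, adjusted p = 0.12) and -1.17 (SE 0.29, adjusted p = 0.11). Ttk, the checkpoint kinase Mps1, had 8.14 and 8.11 RPKM after heat shock, 7.52 and 6.96 RPKM under oxidative stress and 8.64 and 8.28 RPKM in untreated cells, and its log2 changes were -0.05 and -0.21. Cdc20, the activator of the anaphase-promoting complex that the checkpoint restrains, differed by -0.05 after heat shock and -0.53 under oxidative stress.

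Among spindle and chromosome genes, Tpx2, a spindle assembly factor that activates Aurora A, had 31.5 and 25.5 RPKM after heat shock, 47.3 and 28.1 RPKM under osmotic stress, 32.2 and 32.6 RPKM under oxidative stress and 67.0 and 33.6 RPKM in untreated cells. Its heat shock libraries were below both untreated ones (log2 change -0.74, SE 0.37, adjusted p = 0.26), and the untreated libraries were 1.99-fold apart. Cenpf, a kinetochore protein, had 10.1 and 7.90 RPKM after heat shock, 18.1 and 6.54 RPKM under osmotic stress, 5.98 and 4.83 RPKM under oxidative stress and 11.2 and 9.0 RPKM in untreated cells. Oxidative stress was below all other libraries, with a log2 change from untreated of -0.85 (SE 0.43, adjusted p = 0.37), and the osmotic stress libraries were 2.77-fold apart. Top2a had 189 and 168 RPKM after heat shock, 329 and 171 RPKM under osmotic stress, 133 and 125 RPKM under oxidative stress and 230 and 200.0 RPKM in untreated cells. It too was lowest under oxidative stress, without overlap (log2 change -0.73, SE 0.30, adjusted p = 0.28). The motors Kif11, Kif20a, Kif23 and Cenpe and the centrosome kinase Nek2 had log2 changes between -0.63 for Kif20a and 0.19 for Kif11 after heat shock, between -0.02 for Kif23 and 0.27 for Nek2 under osmotic stress, and between -0.70 for Cenpe and -0.46 for Kif23 under oxidative stress.

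The 2 libraries of a group differed in 1 direction for nearly all of these genes. Replicate 1 exceeded replicate 2 for 18 of 21 S phase and 18 of 18 G2 and mitosis genes after heat shock, 20 and 18 under osmotic stress, 18 and 16 under oxidative stress and 19 and 17 in untreated cells. The median log2 difference, replicate 1 minus replicate 2, was 0.24 for S phase and 0.38 for G2 and mitosis genes after heat shock, against -0.04 for all rows. It was 0.53 and 0.92 under osmotic stress, against 0.12 for all rows, and 0.21 and 0.42 under oxidative stress, against -0.02. In untreated cells it was 0.42 and 0.75, against 0.12. In each group the G2 and mitosis genes had the wider gap, and in untreated cells that gap of 0.75 was larger in size than their median difference of -0.64 between oxidative stress and untreated cells. Within tables, the median difference of oxidative stress from untreated was -0.50 and -0.35 for S phase genes and -0.80 and -0.50 for G2 and mitosis genes, in the tables of replicate 1 and replicate 2, in that order. The corresponding values after heat shock were -0.37 and -0.31 for S phase genes and -0.16 and -0.05 for G2 and mitosis genes. Under osmotic stress the 2 tables gave 0.11 and 0.03 for S phase genes but 0.34 and -0.20 for G2 and mitosis genes, with opposite signs.

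**Figure D5:**
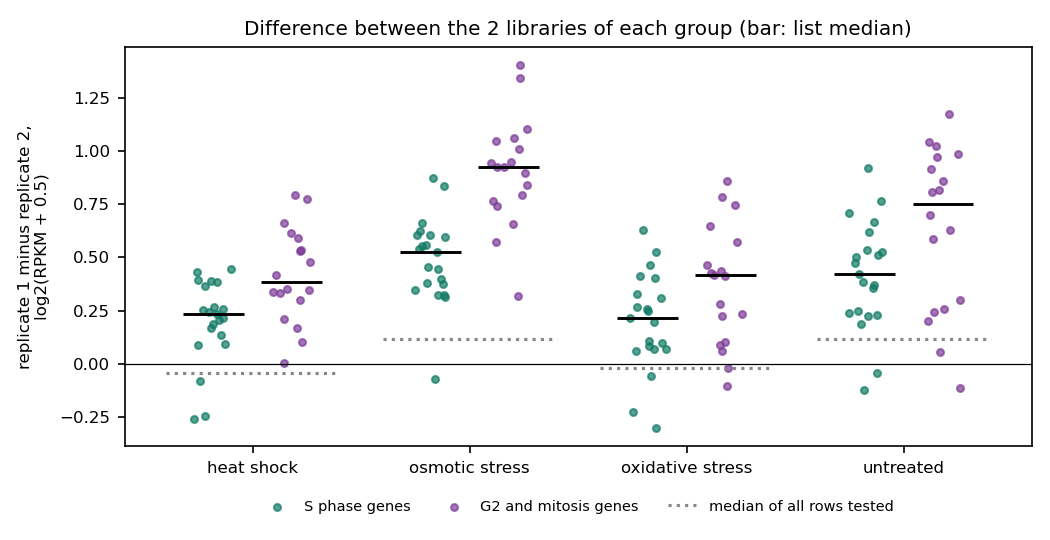
Log2(RPKM + 0.5) of replicate 1 minus replicate 2 within each group, a point per gene, a bar at the list median and a dotted line at the median of all rows. The medians of both lists lie above the line for all rows in all 4 groups, though single S phase genes lie below it, and the G2 and mitosis bars at 0.38, 0.92, 0.42 and 0.75 lie above the S phase bars.

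Other genes of the same pathways were counted from 3 longer lists. Of 41 further replication genes, which cover origin recognition, Okazaki fragment maturation and chromatin assembly, 0 were called in any stress against untreated, with 9, 5 and 2 at an unadjusted p under 0.05 for heat shock, osmotic and oxidative stress. Of all rows, 6.62%, 0.691% and 1.48% were called in these comparisons, and 25.5%, 22.1% and 17.9% had an unadjusted p under 0.05. After heat shock 20 of the 41 were below 0, with a median log2 change of 0.01, beside -0.09 over all rows. The lean of the S phase list after heat shock thus did not extend to them. Under oxidative stress 36 of the 41 were below 0, with a median log2 change of -0.38, beside -0.10 over all rows. Of 58 further G2 and mitosis genes, 56 were below 0 under oxidative stress, with a median of -0.46, beside -0.10 over all rows. There limma called 0 of them, against 1.48% of all rows, and 6 of the 58 had an unadjusted p under 0.05, against 17.9% of all rows. After heat shock 34 of the 58 were below 0, with a median of -0.23, beside -0.09 over all rows. Of the 58 only Dlgap5 (1.72%, against 6.62% of all rows called), which encodes the spindle protein HURP, was called lower after heat shock. It had 7.12 and 6.23 RPKM there, against 17.5 and 14.2 RPKM in untreated cells. Its log2 change was -1.18 (SE 0.19, adjusted p = 0.023), and it was also lower after heat shock than under oxidative stress, by -0.87 (adjusted p = 0.031).

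Between stresses, these further lists were called less often than all rows. For heat shock against oxidative stress limma called 5.17% of the 58 mitotic and 4.88% of the 41 replication genes, against 14.2% of all rows. For osmotic against oxidative stress it called 6.9% and 7.32%, against 19.3% of all rows. Fbxo5, the anaphase-promoting complex inhibitor Emi1, had the largest differences of the further mitotic genes. It had 14.8 and 10.6 RPKM after heat shock, 24.9 and 11.7 RPKM under osmotic stress, 3.67 and 3.56 RPKM under oxidative stress and 11.1 and 9.14 RPKM in untreated cells. The oxidative stress libraries were below all others. Heat shock was higher than oxidative stress by a log2 difference of 1.66 (SE 0.34, adjusted p = 0.029) and osmotic stress by 2.10 (SE 0.34, adjusted p = 0.022). Plk4, the kinase of centriole duplication, was higher after heat shock than under oxidative stress by 1.45 (adjusted p = 0.023). The small Cdk subunit Cks2 and the cytokinesis factor Ect2 were higher under osmotic than under oxidative stress by 1.58 (adjusted p = 0.048) and 1.29 (adjusted p = 0.049). Under osmotic stress Cks2 had 26.6 and 12.7 RPKM and Ect2 53.9 and 25.3 RPKM, the higher value in the library that stood apart. No fit without that library is given for the genes of this paragraph. Dbf4, the partner of the origin-firing kinase Cdc7, had 48.3 and 44.1 RPKM after heat shock, 68.1 and 41.7 RPKM under osmotic stress and 23.0 and 23.6 RPKM under oxidative stress. It was higher after heat shock by 0.97 (adjusted p = 0.038) and under osmotic stress by 1.18 (adjusted p = 0.025). The origin recognition subunit Orc2 was higher after heat shock by 0.60 (adjusted p = 0.042), and the fork protein Tipin and polymerase subunit Pold3 were higher under osmotic stress by 0.90 (adjusted p = 0.030) and 0.77 (adjusted p = 0.049).

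Cell cycle regulators, meaning D-type cyclins, Cdk inhibitors, the Rb and E2F families and checkpoint kinases, were tested for 34 of 37 genes, and 0 were called against untreated in any stress (5, 6 and 10 at an unadjusted p under 0.05 for heat shock, osmotic and oxidative stress). The shares of all rows were 6.62%, 0.691% and 1.48% called and 25.5%, 22.1% and 17.9% at the unadjusted p. Under oxidative stress 31 of 34 were below 0, with a median log2 change of -0.42, beside -0.10 over all rows. For heat shock against oxidative stress 4 of 34 (11.8%) were called, against 14.2% of all rows, and for osmotic against oxidative stress 9 of 34 (26.5%), against 19.3%. The cyclin Ccnd3 was higher after heat shock by 1.59 (SE 0.36, adjusted p = 0.035), the MuvB subunit Lin9 by 1.07 (adjusted p = 0.027) and the Cdk4 inhibitor Cdkn2d, a name with 2 rows, by 0.91 (adjusted p = 0.039). Under osmotic stress Cdkn2d was higher than under oxidative stress by 1.30 (adjusted p = 0.022), the mitosis-delaying kinase Wee1 by 1.24 (adjusted p = 0.049) and Lin9 by 1.12 (adjusted p = 0.025). Their osmotic stress libraries had 11.5 and 8.61 RPKM for Cdkn2d, 11.5 and 6.28 RPKM for Wee1 and 11.7 and 7.59 RPKM for Lin9. The higher value was each time in the library that stood apart, and no fit without it is given for these genes. Cdkn1a, which encodes the Cdk inhibitor p21 and was chosen after its values were seen, had a positive log2 change. It had 27.7 and 22.3 RPKM under oxidative stress, against 13.5 and 7.87 RPKM in untreated cells, a log2 change of 1.23 (SE 0.31, adjusted p = 0.11).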

How the data were processed

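Nuclear RNA of 8 libraries was used, 2 in each of 4 groups assigned from the sample titles and the table headers. The authors deposited RPKM for gene models, as the table headers state, in 2 tables with 1 library per group each. Per the submitters' processing notes, Bowtie, SAMtools, Cufflinks and the build mm9 were used. Versions, annotation, counted strand and filters are not stated in the labels or headers used here. Reads of overlapping or antisense genes may therefore be shared. Values were taken as log2(RPKM + 0.5). A row entered if 2 or more libraries reached 0.5 RPKM, which 16056 of 48676 did. A linear model of the 4 groups was fitted with limma 3.58.1 under R 4.3.3, using moderated variances with a mean trend, 2.59 prior and 4 residual degrees of freedom. Two-sided p-values were adjusted over all rows by the Benjamini-Hochberg method and called under 0.05. The script was tested on simulated data. Means ± SD are over 2 libraries of a group.

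The members, longer lists and promoter motifs were chosen with earlier results of these data known. Genes with full values are those called in any comparison and, per stress and list, the 3 highest and 3 lowest log2 changes from untreated. Top2a, and single comparisons of Cdt1, Gins1, Rrm2, Tyms and Ttk, were added after their values were seen; of the longer lists, up to 3 called in each direction per comparison. The replicate numbers were not taken as pairing, since the labels do not say that a number marks a shared culture or day. Promoter sequences are RefSeq's (GRCm38.p6), used for their letters only, with no coordinates carried to or from mm9. Alternatives were other pseudocounts, filters, scalings, spread models and fits, and leaving out each library.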

Additional observations from a re-analysis of the deposited data

Results flagged for a closer look

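Between-stress differences were flagged where limma's test of the difference itself passed an adjusted p under 0.05, which held for 5 differences in 3 genes. Ccne1 was higher after heat shock than under oxidative stress by a log2 difference of 1.08, with 8.8 and 10.5 against 4.39 and 4.19 RPKM. It was higher under osmotic than under oxidative stress by 0.96, with 8.56 and 9.02 against 4.39 and 4.19 RPKM. Ccne2 was higher after heat shock by 0.93 and under osmotic stress by 0.89, each against oxidative stress. Rfc1 was higher under osmotic than under oxidative stress by 0.72, with 25.1 and 20.1 against 12.0 and 14.9 RPKM. In each of the 5 differences both libraries of the first stress were above both oxidative stress libraries. The same libraries picked these differences, so that order adds no support. Of all rows, 31.5% were above in this way for heat shock and 49.3% for osmotic stress, each against oxidative stress. In those comparisons limma called 14.2% and 19.3% of all rows, against 5.13% and 7.69% of the 39 genes.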

How the results depend on the processing

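The direction of the list medians under oxidative stress held in all alternatives run, with the S phase median between -0.62 and -0.22 and the G2 and mitosis median between -0.93 and -0.20 when libraries were left out in turn. Counts of calls were less stable. Columns scaled to a common sum gave 378 rows called for heat shock against untreated, 551 for heat shock against osmotic stress, 627 for heat shock against oxidative stress and 819 for osmotic against oxidative stress. By construction that setting divides osmotic stress replicate 1 by a sum in which 1 row holds 1025000 of 1943000 RPKM. Under it the S phase medians were 0.14 for heat shock against untreated, -0.59 for osmotic stress against untreated, 0.82 for heat shock against osmotic stress, 0.37 for heat shock against oxidative stress and -0.43 for osmotic against oxidative stress. The G2 and mitosis medians were 0.89 for heat shock against osmotic stress and -0.06 for osmotic against oxidative stress. It called 0 S phase genes in heat shock against oxidative stress and 0 in osmotic against oxidative stress (limma adjusted p 0.20 to 0.98). It turned the signs of Ccne2 (-0.21), Rfc1 (-0.30), Cdk1 (-0.19), Plk1 (-0.17) and Aurka (-0.26) for osmotic stress against untreated and of Rfc1 (-0.12) for osmotic against oxidative stress. Median-of-ratios scaling called 507 rows for heat shock against osmotic stress and 1634 for osmotic against oxidative stress, with 1 S phase gene called there and 1 under oxidative stress against untreated, Ccne1 both times. Quantile normalization called 547 and 1415 rows in the same comparisons, with 1 S phase gene each, and called 2 S phase genes for heat shock against untreated (Pcna and Rrm1) and 1 G2 and mitosis gene for heat shock against oxidative stress (Top2a). Fits of only the 4 libraries compared called 241 rows for heat shock, 2 for osmotic and 5 for oxidative stress against untreated, 60 for heat shock against osmotic stress and 10, with 0 S phase genes, for osmotic against oxidative stress; such fits hold fewer samples. For oxidative stress against untreated 880 rows were called with no filter on low values, 103 with at least 1 RPKM in 2 libraries and 375 with no mean trend. With no filter 1 S phase gene was called for heat shock against oxidative stress. The cause of these shifts was not tested.

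With the replicate number as a block, 2124, 433 and 412 rows were called for heat shock, osmotic and oxidative stress against untreated, and 2483, 3836 and 5228 for heat shock against osmotic, heat shock against oxidative and osmotic against oxidative stress. Against untreated the block called 4 S phase genes and 1 G2 and mitosis gene after heat shock, Mcm5, Mcm7, Rrm1, Tyms and Bub1b, and 2 G2 and mitosis genes under oxidative stress, Aurka and Bub1b. It called 4 and 1 for heat shock against osmotic stress, 5 and 5 for heat shock against oxidative stress and 8 and 10 for osmotic against oxidative stress. These counts are of 21 S phase genes and 18 G2 and mitosis genes, and the counts of rows are of 16056. The share of the 39 genes called was above that of all rows in each comparison with oxidative stress, most of all for osmotic stress. In the other comparisons it was below. These shares were not tested. The deviations of same-numbered libraries from their group means correlated with r between 0.06 and 0.26 over all rows and between 0.11 and 0.75 over the 39 genes. With 2 numbers this is a description only.

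Leaving out each library in turn, rows called ranged between 73 and 1231 for heat shock against untreated, 8 and 777 for osmotic stress against untreated, 11 and 229 for oxidative stress against untreated, 73 and 1138 for heat shock against osmotic stress, 107 and 2307 for heat shock against oxidative stress and 14 and 2890 for osmotic against oxidative stress. The S phase median after heat shock ranged between -0.59 and -0.17. Counts of rows here are of 16056, and the counts of genes that follow are of 21 S phase and 18 G2 and mitosis genes. Between 0 and 1 G2 and mitosis genes were called after heat shock, 0 and 3 S phase genes for heat shock against oxidative stress, and 0 and 4 S phase and 0 and 5 G2 and mitosis genes for osmotic against oxidative stress. Signs of uncalled log2 changes turned for Rfc4 (-0.02 to 0.46), Ccnb2 (-0.04 to 0.82), Aurka (-0.12 to 0.90) and Aurkb (-0.10 to 0.82) after heat shock. They turned for Pole (-0.56 to 0.05), Cdk1 (-0.03 to 0.98), Plk1 (-0.11 to 1.06), Aurka (-0.11 to 0.91) and Tpx2 (-0.87 to 0.12) under osmotic stress and for Ccnb2 (-0.30 to 0.56) under oxidative stress. A fit with a lone library in a group assumes that it varies like the others. Summing rows of 1 name was not run, since each of the 39 genes has 1 row. The depth is unknown, so what it limits cannot be given.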
